A study of Mus musculus with 8 samples.

Results

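The let-7 family was followed as 9 mature miRs of the callus: the 5p arms mmu-let-7a-5p, mmu-let-7b-5p, mmu-let-7c-5p, mmu-let-7d-5p, mmu-let-7e-5p, mmu-let-7f-5p, mmu-let-7g-5p and mmu-let-7i-5p, and the 3p arm mmu-let-7a-1-3p. They were picked by name, with earlier results of these data known, out of 1079 murine miRs on the array. All 9 were called detected on all 8 arrays, as were 310 miRs in total. Callus RNA came from the right femur of male and female CD-1 mice, aged 9 to 14 weeks, 7 days after an osteotomy that was stabilized with a pin and a clip. The Non-union group (specimens P13 to P16, n = 4) had a segmental gap of 1.8 mm and the periosteum stripped, and the Union group (P17 to P20, n = 4) had a gap of 0.25 mm. Gap and stripping differ together, and the group names stand for the outcome the model is known to lead to. The comparison asks how miR levels in a callus bound for nonunion differ from those in a healing one.

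In each let-7 gene, a hairpin precursor is cut to a short duplex, and the 5p arm is usually kept while the 3p arm is mostly discarded. The kept arm pairs through its seed, bases 2 to 8, with target mRNAs, among them those of Ras, Myc, Lin28 and Hmga2, and lowers their output. Lin28 proteins in turn block the maturation of let-7 precursors, and let-7 levels are known to rise as cells leave proliferation and differentiate. In the skeleton, let-7 is known from osteogenic differentiation of mesenchymal cells and from proliferating growth plate chondrocytes.

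The mature sequences from RefSeq (GRCm38.p6, matched by name for all 9 members) are printed below, since the family is defined by the seed and the array must tell its members apart by the bases outside it. Capitals mark bases 2 to 8, all sequences run 5′ to 3′, and miR-98-5p is added as the family member with another name.
mmu-let-7a-5p: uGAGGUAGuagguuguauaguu
mmu-let-7b-5p: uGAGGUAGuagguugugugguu
mmu-let-7c-5p: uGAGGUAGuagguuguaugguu
mmu-let-7d-5p: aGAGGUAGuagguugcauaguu
mmu-let-7e-5p: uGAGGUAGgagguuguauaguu
mmu-let-7f-5p: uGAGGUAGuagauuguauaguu
mmu-let-7g-5p: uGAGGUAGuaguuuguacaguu
mmu-let-7i-5p: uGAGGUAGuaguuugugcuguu
mmu-miR-98-5p: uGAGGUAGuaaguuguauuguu
mmu-let-7a-1-3p: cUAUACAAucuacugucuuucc

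All 8 5p members are 22 bases long and share the seed GAGGUAG, which 11 of 1679 mature entries of the RefSeq table carry. The 3p arm has the seed UAUACAA, shared by 5 entries, and its whole sequence is identical to that of mmu-let-7c-2-3p. Counted from 1 at the 5′ end, let-7a-5p and let-7c-5p differ by A19G, let-7a-5p and let-7e-5p by U9G, let-7a-5p and let-7f-5p by G12A, and let-7b-5p and let-7c-5p by G17A. These 4 pairs differ at 1 base. The other pairs differ at 2 to 6 bases, and none of the 28 pairs differs in the seed.

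The members come from hairpins on 7 chromosomes (GRCm38.p6). Mirlet7d, Mirlet7f-1 and Mirlet7a-1 follow each other on the minus strand of chromosome 13, with 1714 and 261 bases between the hairpins, and hold mature let-7d-5p (chr13:48536078-48536099), let-7f-5p (chr13:48537889-48537910), let-7a-5p (chr13:48538239-48538260) and let-7a-1-3p (chr13:48538188-48538209). Mirlet7c-2 (let-7c-5p at chr15:85706616-85706637) and Mirlet7b (let-7b-5p at chr15:85707325-85707346) lie 621 bases apart on the plus strand, inside the lncRNA gene Lncppara. Mature let-7c-5p is also made from Mirlet7c-1 (chr16:77599672-77599693, plus strand), and let-7f-5p from Mirlet7f-2 (chrX:151912353-151912374, plus strand), which lies in Huwe1, 785 bases from the hairpin of miR-98. The hairpin Mirlet7a-2 (chr9:41536716-41536811, plus strand) also holds the let-7a-5p sequence. Single sites were let-7e-5p (chr17:17830366-17830387, plus strand) within Spaca6, let-7g-5p (chr9:106178846-106178867, plus strand) within Wdr82, and let-7i-5p (chr10:122985698-122985719, minus strand). A mature sequence with more than 1 source gives 1 signal, and its sources cannot be told apart on the array.

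Each specimen had 1 array, all 8 arrays lay on 1 slide, and the Non-union arrays formed one row of it and the Union arrays the other, for which reason row and group cannot be told apart. Each miR has 40 spots, which the scanner software merges by probe into 1 background-corrected signal in linear intensity units. Added up over the murine miRs, these signals came to 183589 to 279341 units on the Non-union arrays and to 227941 to 360063 units on the Union arrays, with 324 to 366 and 361 to 391 miRs detected. Leaving out P19 changed the group comparison most. An unadjusted limma p under 0.05 was reached by 43 of 310 miRs with P19 (13.9%) and by 115 without it (37.1%). Leaving out any other array gave 18 (5.81%) to 49 (15.8%). P19 was thus picked by the group comparison itself, and its removal favours groups that lie apart. In the paper's clustering, both P19 and P20 lay near the Nonunion samples. The differences of the members are given with and without P19 as a description. Among tissue markers, the 4 cartilage miRs (miR-140-5p, miR-140-3p, miR-455-5p and miR-455-3p) were all detected, and their summed normalized signal was 897 to 3925 in the Non-union group and 442 to 1033 in the Union group, with P19 at the upper end. All 4 reached an unadjusted limma p under 0.05. Skeletal muscle miRs summed to 23692 to 57217 and to 38864 to 64562 (4 of 6 detected on all arrays, not miR-208b-3p and miR-499-5p), and those of red blood cells to 3430 to 10128 and to 3014 to 9722 (3 of 3). Those of myeloid cells and leukocytes summed to 3377 to 4831 and to 4888 to 22220 (3 of 4 detected, with miR-223-5p on no array). The 22220 was that of P20, the other Union arrays reached at most 6309, and 1 myeloid miR had an unadjusted limma p under 0.05. Their part in the let-7 values was not tested. In RNA from whole callus, fewer cells of a type and less RNA per cell cannot be told apart.

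In the comparison of the groups, 8 of 9 members had a positive log2 difference, meaning a higher mean in the Non-union group, against 59.4% of the 310 tested miRs. None passed an unadjusted limma p of 0.05 (0 of 9, with a background of 13.9%) or an adjusted p of 0.05 (0 of 9, background 0.323%). The differences of the 8 5p members ran from -0.034 to 0.50 on the log2 scale, with a median of 0.29, against a median of 0.15 over all tested miRs. A fold change (FC) of 2 was reached by 1 member, let-7a-1-3p, against 8.39% of all miRs in either direction. The groups overlapped for all 9 members, whereas 3.87% of the tested miRs had groups that did not overlap. The smallest 2-sided exact permutation p of a member was 0.0857, where 4 arrays against 4 allow 0.0286 at best.

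**Figure D1:**
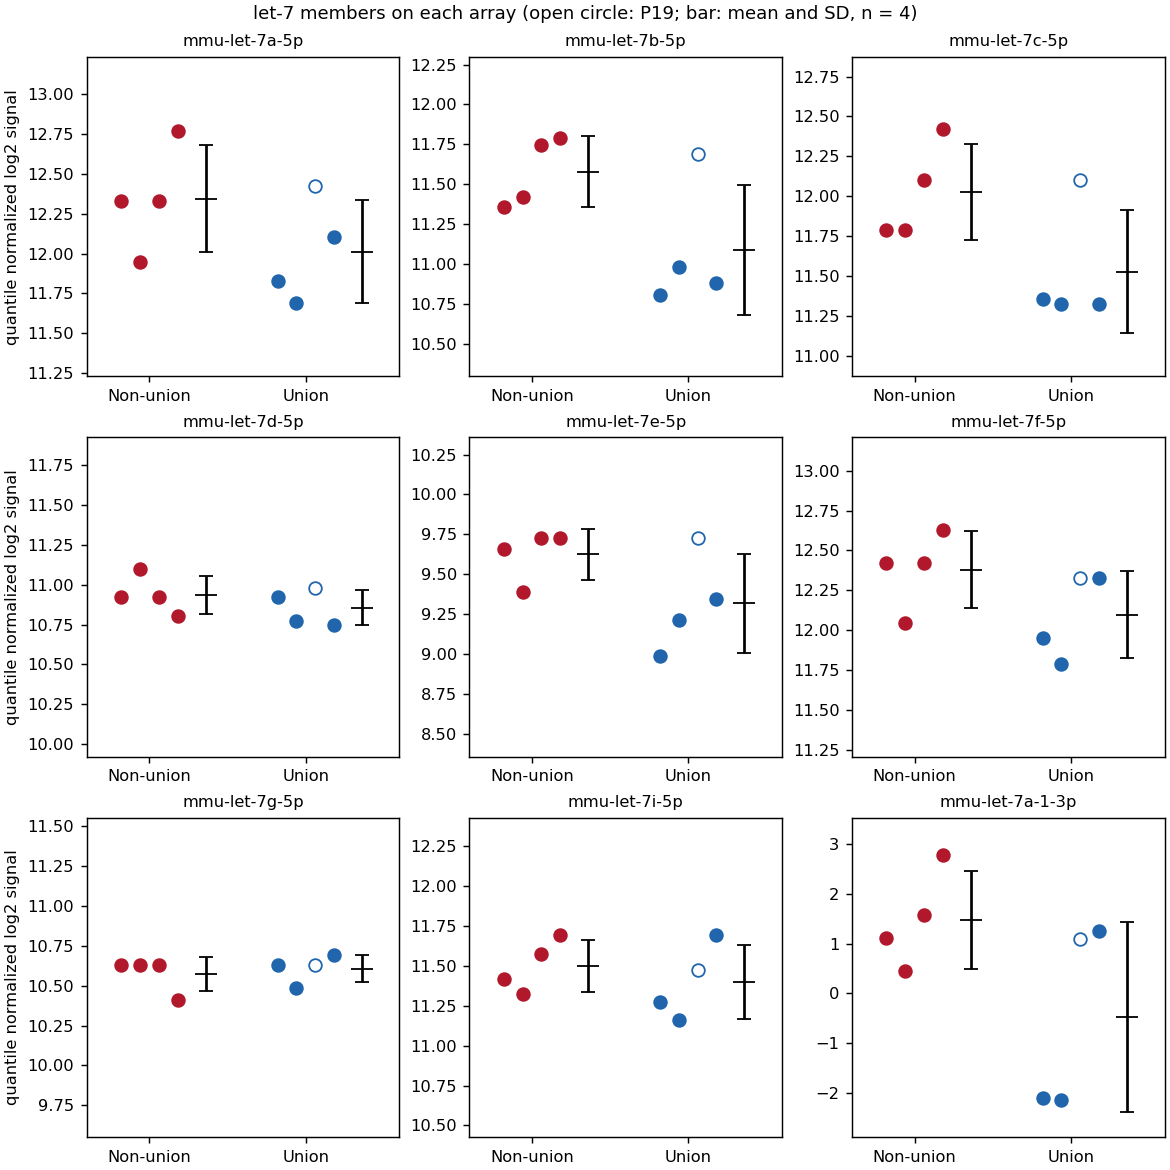
Quantile normalized log2 signal of the 9 let-7 members on each array, by group, with the mean and SD of each group (n = 4) beside the points and P19 as an open circle. The y axis spans 2 log2 units in each 5p panel and 6.4 in that of let-7a-1-3p. For let-7b-5p, let-7c-5p and let-7e-5p, P19 lies within the Non-union range and the other 3 Union arrays lie below it.

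The highest differences among the 5p members were those of let-7c-5p and let-7b-5p, the pair that shares a cluster on chromosome 15. After quantile normalization, let-7c-5p had log2 signals of 11.79, 11.79, 12.10 and 12.42 on P13 to P16 and of 11.36, 11.32, 12.10 and 11.32 on P17 to P20. All Non-union arrays were above P17, P18 and P20, and P19 matched P15. The mean was 12.03 ± 0.30 in the Non-union group and 11.53 ± 0.38 in the Union group (SD, n = 4 each), an FC of 1.41. This difference of 0.50 (SE 0.25, 95% confidence interval -0.07 to 1.07) did not pass limma's test (adjusted p = 0.378) or the exact permutation test (p = 0.114). Before normalization the merged signals of let-7c-5p were 3978, 4017, 3940 and 3659 in the Non-union group and 3075, 2718, 3765 and 2681 in the Union group, so that P19 stood with the Non-union arrays on that scale too.

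Mature let-7b-5p ran in parallel, with normalized log2 signals of 11.36, 11.42, 11.75 and 11.79 in the Non-union group and of 10.80, 10.98, 11.69 and 10.88 in the Union group. P19 was again the highest Union array and fell within the Non-union range. The difference was 0.49 (SE 0.24, 95% confidence interval -0.06 to 1.04), an FC of 1.40 (limma adjusted p = 0.378, exact permutation p = 0.0857). Its merged signals were 2797, 2897, 2904 and 2658 in the Non-union group against 2121, 1934, 2819 and 1990 in the Union group. The Non-union arrays lay close together on that scale, and P19 alone of the Union arrays reached them.

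Mature let-7e-5p, encoded beside miR-99b and miR-125a, had normalized log2 signals of 9.66, 9.39, 9.73 and 9.73 on the Non-union arrays and of 8.99, 9.21, 9.73 and 9.34 on the Union arrays. Here too P19 alone among the Union arrays reached the Non-union values. The difference was 0.31 (SE 0.21, limma adjusted p = 0.387, exact permutation p = 0.171). Without P19, the groups of let-7b-5p, let-7c-5p and let-7e-5p no longer overlapped, with or without normalization, 3 of 8 5p members beside 30.0% of all tested miRs on the normalized scale. The differences were then 0.70 for let-7b-5p (SE 0.19, limma adjusted p = 0.0711), 0.70 for let-7c-5p (SE 0.21, limma adjusted p = 0.0751) and 0.46 for let-7e-5p (SE 0.19, limma adjusted p = 0.123). With let-7a-1-3p these were 4 of 9 members at an unadjusted p under 0.05, against 37.1% of all miRs, and 0 of 9 at an adjusted p under 0.05.

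The 3 members with a gene in the chromosome 13 cluster had differences of 0.080 to 0.33. For let-7a-5p the normalized log2 signals were 12.33, 11.95, 12.33 and 12.77 in the Non-union group and 11.83, 11.69, 12.42 and 12.10 in the Union group, and for let-7f-5p they were 12.42, 12.05, 12.42 and 12.63 against 11.95, 11.79, 12.33 and 12.33. In both, P16 was the highest array and P18 the lowest, and the groups overlapped. The differences were 0.33 (SE 0.25, limma adjusted p = 0.401) and 0.28 (SE 0.21, limma adjusted p = 0.410). For let-7d-5p, the third gene of the cluster, the values were 10.92, 11.10, 10.92 and 10.80 in the Non-union group and 10.92, 10.78, 10.98 and 10.75 in the Union group. Its difference of 0.080 (SE 0.17, 95% confidence interval -0.30 to 0.46, limma adjusted p = 0.750) lay within the spread between arrays.

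The members encoded singly on chromosomes 9 and 10, let-7g-5p and let-7i-5p, also differed little. The normalized log2 signal of let-7g-5p was 10.63 on P13, P14 and P15 and 10.41 on P16, and 10.63, 10.48, 10.63 and 10.69 in the Union group. That of let-7i-5p was 11.42, 11.32, 11.57 and 11.69 in the Non-union group and 11.27, 11.16, 11.47 and 11.69 in the Union group. The differences were -0.034 for let-7g-5p (95% confidence interval -0.41 to 0.34, limma adjusted p = 0.899) and 0.10 for let-7i-5p (95% confidence interval -0.34 to 0.54, limma adjusted p = 0.726). The interval of let-7i-5p still includes the difference measured for let-7c-5p, and equal levels in the groups were not shown. Without P19, let-7a-5p, let-7d-5p and let-7f-5p had differences of 0.47, 0.13 and 0.36. Those of let-7g-5p and let-7i-5p were -0.029 and 0.12. None of these 5 passed an unadjusted limma p of 0.05. The median of the 8 5p members was then 0.41.

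**Figure D2:**
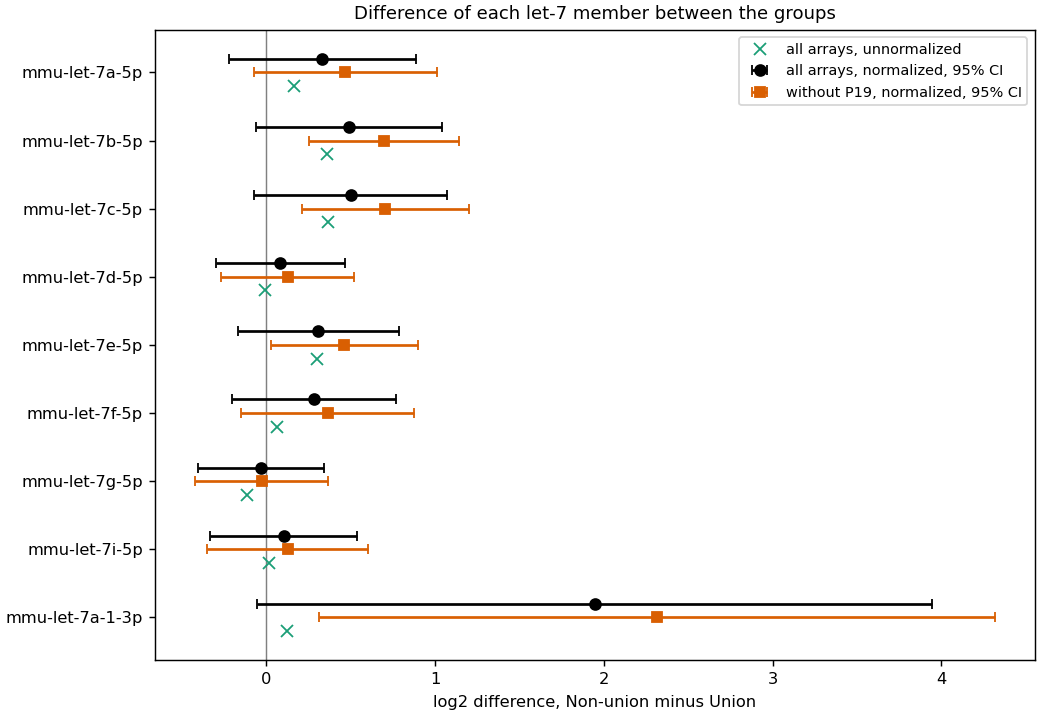
Log2 difference (Non-union minus Union) of each let-7 member with its 95% confidence interval from limma, for all arrays and without P19, and the unnormalized difference as a cross. With all arrays every interval includes 0, and without P19 those of let-7b-5p, let-7c-5p, let-7e-5p and let-7a-1-3p do not. P19 was picked by its effect on the group comparison.

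The 5p members gave strong signals. Their merged signals lay between 547.6 and 5315 units, and all 40 spots were well above background on every array. Of 2560 spots, 0 were saturated and 111 (4.34%) were flagged as outliers. The flagged spots numbered 34 of 320 for let-7a-5p and 1 to 15 for each other 5p member. The error that the software gives was 7.19% to 8.05% of the signal. Each 5p member was measured by 2 probes. The unnormalized group differences from the 2 probes lay 0.0098 to 0.095 apart on the log2 scale. For let-7b-5p they were 0.33 and 0.41, for let-7c-5p 0.34 and 0.42, and for let-7e-5p 0.28 and 0.34, so that both probes gave the same direction. For let-7d-5p they were -0.037 and 0.058, and for let-7i-5p -0.0057 and 0.047, so that the direction depended on the probe.

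Normalization changed the order of the arrays for the whole family. On the merged signal scale, P16 was the lowest Non-union array for 8 of 8 5p members. After quantile normalization it was the highest, or tied for it, for 6 of 8, being lowest for let-7d-5p and let-7g-5p. P16 also had the lowest summed signal of all arrays. P19 was the highest or tied among the Union arrays for 6 of 8 members after normalization and for 3 of 8 before it. Without any normalization the differences were 0.36 for let-7b-5p, 0.36 for let-7c-5p, 0.30 for let-7e-5p and 0.16 for let-7a-5p, and between -0.12 and 0.06 for let-7d-5p, let-7f-5p, let-7g-5p and let-7i-5p. The median of the 5p members was then 0.11, beside -0.10 over all tested miRs. The median of all tested miRs thus moved by 0.25 between these scales. The 5p median stayed 0.15 to 0.31 above it in all 11 settings that kept every array. Some of these settings gave the same 5p median of 0.29 and differed only in the median of all tested miRs. With 1 array left out, the 5p median lay 0.097 (without P20) to 0.23 (without P19) above that of all tested miRs.

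Log2 ratios between members on the same array do not depend on the scaling and show how far the members moved apart. Over the 28 pairs of 5p members, the ratio ranged over the 8 arrays by a median of 0.53, from 0.12 to 0.92, against a median of 1.84 for all 47895 pairs of tested miRs, which include miRs near the detection limit. The steadiest pair was let-7b-5p with let-7c-5p, with log2 ratios of -0.51, -0.47, -0.44 and -0.46 on P13 to P16 and of -0.54, -0.49, -0.42 and -0.43 on P17 to P20. Next came let-7d-5p with let-7f-5p (range 0.17) and let-7a-5p with let-7f-5p (range 0.22), each a pair with adjoining hairpins on chromosome 13. The remaining 5p pair of that cluster, let-7a-5p with let-7d-5p, had a range of 0.38. That was wider than the 0.35 of let-7d-5p with let-7g-5p, which are encoded on different chromosomes. The widest pairs were let-7c-5p with let-7g-5p and let-7c-5p with let-7i-5p, both with a range of 0.92.

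The ratio of let-7c-5p to let-7g-5p was 1.36, 1.27, 1.42 and 1.57 on the log2 scale in the Non-union group and 0.76, 0.97, 1.34 and 0.64 in the Union group. It was higher on all Non-union arrays than on P17, P18 and P20, and P19 lay between P14 and P13. The mean difference of 0.48 had a 2-sided exact permutation p of 0.0571, the smallest among the 28 pairs, shared by 5 of them and not adjusted for them. The other 4 were let-7a-5p with let-7d-5p, and let-7a-5p, let-7e-5p and let-7f-5p each with let-7g-5p. In no pair were the groups apart (0 of 28, against 5.47% of all pairs of tested miRs). Without P19 they were apart in 18 of 28, against 27.8%.

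**Figure D3:**
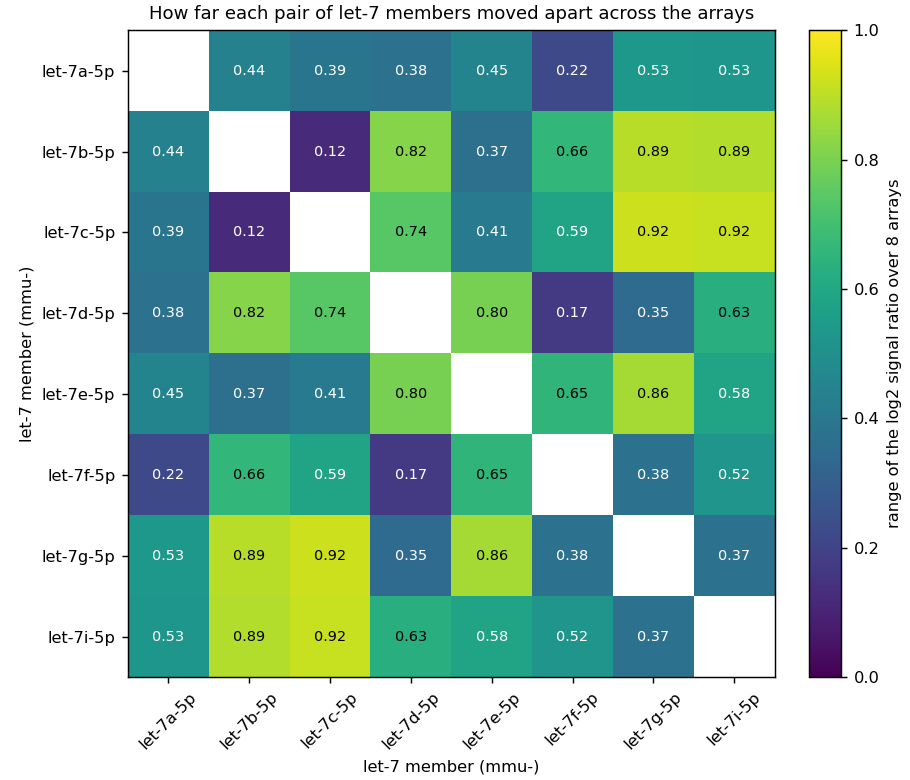
Range over the 8 arrays of the log2 signal ratio between each pair of 5p members, on a scale from 0 (a fixed ratio) to 1. The darkest cells are let-7b-5p with let-7c-5p (0.12), let-7d-5p with let-7f-5p (0.17) and let-7a-5p with let-7f-5p (0.22), and the brightest join let-7b-5p and let-7c-5p to let-7g-5p and let-7i-5p (0.89 to 0.92).

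The ratios were also set against the number of bases at which the members of a pair differ. The median range was 0.31 for the 4 pairs that differ at 1 base, 0.42 for the 8 pairs at 2 bases, 0.77 for the 8 pairs at 3 bases and 0.67 for the 6 pairs at 4 bases. It was 0.58 for the 1 pair at 5 bases and 0.63 for the 1 pair at 6 bases, so that the range did not widen beyond 3 bases. The pair let-7d-5p and let-7f-5p differs at 3 bases (A1U, G12A and C16U) and still ranged by 0.17 only, whereas let-7a-5p and let-7e-5p differ by U9G alone and ranged by 0.45. Pairs share members and probes, so that these medians are a description. How far a probe also binds the RNA of another member was not tested.

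The 3p arm let-7a-1-3p had the largest normalized difference of the family, 1.95 (SE 0.88, 95% confidence interval -0.05 to 3.95, limma adjusted p = 0.378, exact permutation p = 0.171), an FC of 3.85. Its normalized log2 signals were 1.11, 0.44, 1.56 and 2.78 in the Non-union group and -2.10, -2.14, 1.09 and 1.26 in the Union group. P17 and P18 were far below all other arrays, and P19 and P20 lay within the Non-union range. The merged signals did not show this gap. They were 3.60, 2.46, 3.27 and 3.00 in the Non-union group and 3.29, 2.34, 2.54 and 3.17 in the Union group, with means of 3.08 ± 0.48 and 2.84 ± 0.47 (SD, n = 4 each; 2-sided exact permutation p = 0.514).

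These merged signals lay at the lower end of detection. On every array they equalled the signal of 1 of the 4 probes for let-7a-1-3p. The other probes gave signals between -0.50 and 0.65. Only 2 to 19 detected miRs on an array had a lower signal, the software error was 21.5% to 32.1% of the signal, and between 0 and 6 of the 40 spots per array were well above background. Quantile normalization set let-7a-1-3p below 2.16, the lowest merged signal of any detected miR on any array, on 5 of 8 arrays (log2 1.11). P17 and P18, on which most miRs were detected (391 and 381), got the lowest values. None of the 5p members was set below that limit. The difference was 0.12 without normalization and 0.03 when the quantile normalization ran over detected miRs only, and without P19 it was 2.31 (SE 0.87, limma adjusted p = 0.0971). Its size thus changed with how undetected miRs entered the normalization. In the authors' value table the difference was 0.22 (limma adjusted p = 0.378). The paper lists let-7a-1-3p, and no other let-7 member, among its relevant miRs, as significantly different with an FC under 2. Since the sequence of let-7c-2-3p is the same, the signal cannot be assigned to Mirlet7a-1 alone.

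**Figure D4:**
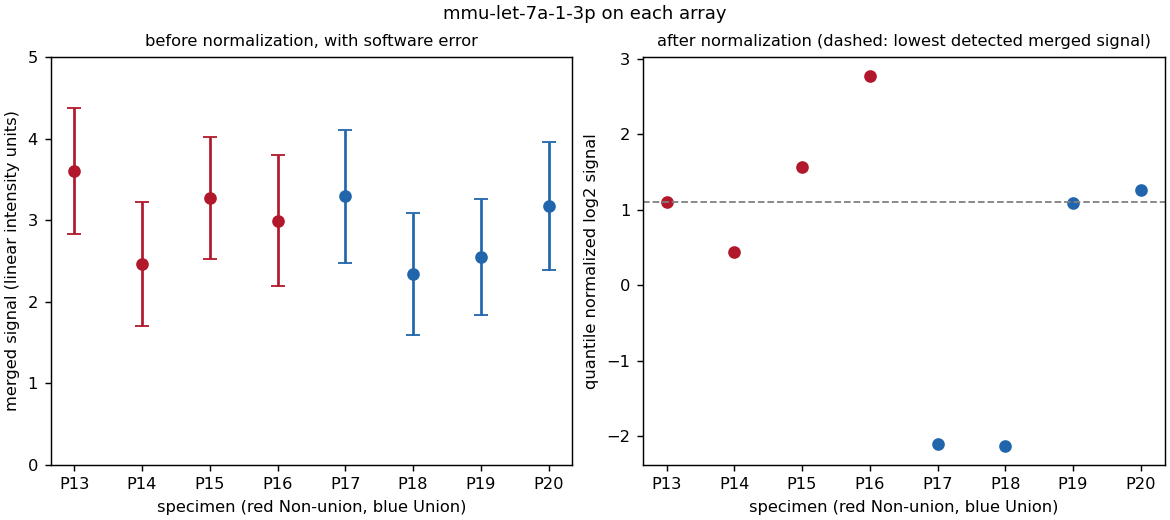
Signal of mmu-let-7a-1-3p on each array before normalization (left, linear units, bars show the error given by the scanner software) and after it (right, log2, dashed line at the lowest merged signal of any detected miR). The merged signals of all arrays lie between 2.34 and 3.60 and their error bars overlap, while the normalized values of P17 and P18 fall to about -2.1.

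The other passenger arms of the family were near or below detection. Of the 9 other let-7 3p arms on the array, 1 was detected on all arrays (let-7d-3p), 6 on none, and let-7b-3p and let-7c-1-3p on P15 alone. The normalized difference of let-7d-3p, 1.67 (SE 0.95, limma adjusted p = 0.378, exact permutation p = 0.257), went with merged signals of 2.64, 2.94, 2.79 and 2.85 in the Non-union group and of 3.57, 2.90, 2.81 and 4.08 in the Union group, the Union mean being the higher one before normalization. Its direction thus depended on the normalization.

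The family member miR-98-5p, which has the let-7 seed and differs from let-7a-5p by G11A and A19U, had normalized log2 signals of 7.57, 7.26, 7.65 and 7.60 in the Non-union group and of 7.12, 6.83, 7.45 and 7.39 in the Union group. The difference was 0.32 (SE 0.21, limma adjusted p = 0.386, exact permutation p = 0.114), within the range of the 5p members, and its groups overlapped. Its 3p arm was detected on no array.

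The miRs that share transcripts with let-7 genes, the arms of miR-99a, miR-99b, miR-100, miR-125a and miR-125b, were taken as neighbours. Members of the miR-125 family are the vertebrate counterparts of lin-4, which acts beside let-7 in worm development. Of these 11 arms, 7 were detected on all arrays, 6 of the 7 had a positive difference (59.4% of all tested miRs), and their median was 0.36, against 0.15 over all tested miRs. An unadjusted limma p under 0.05 was reached by 1 of the 7, about the 13.9% of all tested miRs. This was miR-99b-3p (difference 2.27, SE 0.82, limma adjusted p = 0.313, exact permutation p = 0.0857), and 0 of the 7 had an adjusted p under 0.05. Its merged signals of 2.46, 3.21, 3.73 and 3.95 in the Non-union group and of 3.21, 2.31, 2.51 and 2.57 in the Union group were as near to the detection limit as those of let-7a-1-3p.

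The 5p arms encoded with let-7e, miR-99b-5p and miR-125a-5p, had differences of 0.48 (SE 0.22, limma adjusted p = 0.378) and 0.41 (SE 0.26, limma adjusted p = 0.386). Those of miR-100-5p, miR-99a-5p and miR-125b-5p were 0.36, 0.32 and 0.28, and that of miR-125a-3p was -0.29. None of these 6 passed the test. After quantile normalization, P19 was the highest Union array for miR-99a-5p, miR-99b-5p, miR-100-5p, miR-125a-5p and miR-125b-5p, as for let-7b-5p, let-7c-5p and let-7e-5p. On the merged signal scale, P17 was the highest Union array for miR-99a-5p and miR-100-5p, and P19 for the others. The groups of miR-99b-5p did not overlap on that scale, with 128 to 141 in the Non-union group and 95.5 to 122 in the Union group. Its 2-sided exact permutation p before normalization was 0.0286, not adjusted for the other miRs. After quantile normalization its groups overlapped (exact permutation p = 0.0857).

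The mean normalized log2 signal of the 8 5p members was 11.32, 11.21, 11.43 and 11.53 on P13 to P16 and 10.97, 10.93, 11.42 and 11.14 on P17 to P20. Among 301 other miRs, the 5 whose profile over the 8 arrays lay closest to this mean, by the root mean square of the centred differences, were miR-350-3p (0.071), miR-320-3p (0.089), miR-28c (0.090), miR-28-5p (0.11) and miR-125b-5p (0.11), where the median miR was at 0.43. Of the members themselves, let-7e-5p was nearest to their mean (0.097) and let-7g-5p farthest (0.24), apart from let-7a-1-3p (1.45). The 5 miRs had differences of 0.25 to 0.34. The 8 arrays share 1 slide and 1 normalization, and the likeness is given as a description.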

How the data were processed

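Callus RNA of 8 mice was measured on 8 single-colour (Cy3) miR arrays. The authors deposited the output of Agilent Feature Extraction 10.10.1.1 as background-corrected intensity values, merged per miR, with detection calls, and a table of normalized log2 values, which served as an alternative. Undetected miRs carry a merged signal of 0.1.

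For 1079 murine miRs, log2 was taken of the merged signals before quantile normalization, in the order of the study's methods. The values are not identical to the authors' own. The paper counted more than 310 miRs as detected in all samples. The difference of let-7a-1-3p was 1.95 here and 0.22 in the authors' value table. Groups were compared over the 310 miRs detected on every array with limma 3.58.1 in R 4.3.3 (lmFit and eBayes, 2-sided, Benjamini-Hochberg adjustment over all 310). An FC is 2 to the power of the difference. Exact tests permuted all 70 arrangements. Python 3.11.15, pandas 2.3.3, scipy 1.17.1 and matplotlib 3.10.9 were used. The fit was tested on simulated data.

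Named miRs were the members, the other let-7 and miR-98 arms, the cluster partners and the 5 miRs most like the family. Members and lists were chosen with earlier results of these data known. Alternatives were other normalizations, background corrections, filters, the value table, another limma setting and leaving out each array. Each probe alone, and no normalization without P19, were added after seeing the data. The array design uses another genome build than the RefSeq table, and only RefSeq coordinates are given. The number of arrays limits the precision.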

Additional observations from a re-analysis of the deposited data

Results flagged for a closer look

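Among 36 groups of 4 arrays tested for a single array far from the rest (Dixon's test at the 95% level), 3 stood out, where chance alone gives about 1 in 20, or 1.8 of 36. For let-7c-5p in the Union group, P19 had a normalized log2 signal of 12.10, and the other 3 arrays had 11.32 to 11.36. For let-7g-5p in the Non-union group, P16 had 10.41, and the other 3 arrays had tied values of 10.63 that the quantile normalization gave them. For miR-99a-5p in the Non-union group, P16 had 9.39, and the others had 9.13 to 9.18.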

How the results depend on the processing

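None of the 9 members (0 of 9) had an adjusted limma p under 0.05 in any setting run. At an unadjusted p under 0.05, the count of members was 2 after scaling to the 75th percentile over detected or over all murine miRs (let-7b-5p and let-7c-5p, beside 13.9% and 13.5% of all tested miRs), 2 after normexp (let-7b-5p and let-7e-5p, beside 16.1%), 1 with averaged spot signals (let-7a-1-3p, beside 14.8%), and 0 to 4 when 1 array was left out. The 4 came without P19 (37.1%), and let-7a-1-3p alone passed without P14 (15.8%) and without P20 (15.7%). The count of members at an FC of 2 fell to 0 after either percentile scaling, normexp, no normalization, normalization over detected miRs only, the authors' value table, a requirement of 1 spot well above background (which removes let-7a-1-3p), and a floor of 1. The difference of let-7g-5p was 0.11 and 0.13 after percentile scaling over detected and all miRs, 0.11 after normexp, 0.018 without P16 and -0.076 to 0.018 over all arrays left out. That of let-7d-5p was -0.0066 without normalization, and -0.024 without normalization and P19, where let-7i-5p was at -0.0086. The cause of these reversals was not tested. Pairs of 5p members with groups apart numbered 2 of 28 with averaged spot signals (5.75% of all pairs) and 0 to 18 when 1 array was left out, with 6 without P14 (16.5%) and 18 without P19 (27.8%). The 5p median was 0.20 to 0.41 when 1 array was left out and 0.11 to 0.39 in the other settings. Of the other values of single members, 159 kept their direction and, where a p was computed, their side of the threshold. A further 13 newly passed an unadjusted limma p of 0.05. The values without normalization and P19 had no p and were compared by direction only. No paired analysis was possible because the groups share no specimen numbers.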
